A study of Homo sapiens with 16 samples.

Results

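Aminoacyl-tRNA synthetases are the enzymes that attach each amino acid to its transfer RNA. They are described here as 36 genes chosen by symbol from the 33121 entries of a table of RNA counts, 20 of them encoding cytosolic and 16 mitochondrial enzymes. All 36 symbols were found in the table, and 35 passed the expression filter. GARS and KARS, whose products serve both compartments, were counted with the cytosolic genes.

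The RNA came from HAP1, a near-haploid line derived from a human leukaemia that grows attached to the dish. The study is about Parkinsonism-associated metal toxicity, by its title, and it set control cells against cells deleted for the manganese exporter gene SLC30A10 and against cells deleted for a different gene, called the second knockout. Poly-A RNA was sequenced from 16 libraries, 4 in each of 4 groups. These were SLC30A10_delta cells, their SLC30A10+/+ controls, the cells of the second knockout, and the wild-type controls of that knockout, called the second control. All groups were grown in IMDM medium with serum and antibiotics, and no treatment is named. The labels give 1 line identifier to all control cells and a separate identifier to each knockout, so each deletion is represented by a single line. The labels do not say whether the 4 libraries of a group came from separate cultures, so p-values measure only the spread between these libraries, which may be technical. In bulk RNA, fewer cells with a transcript and less transcript per cell cannot be told apart.

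In the cytosol each amino acid is served by its own enzyme, except that EPRS carries the activities for glutamate and proline and that the phenylalanine enzyme is built from the products of FARSA and FARSB. Of these enzymes, 8 sit in a multi-synthetase complex held together by the scaffold proteins AIMP1, AIMP2 and EEF1E1. Mitochondria import a separate set, encoded by nuclear genes with names that mostly end in 2. Uncharged tRNA activates the kinase GCN2, encoded by EIF2AK4, which phosphorylates eIF2 alpha. Translation of ATF4 then rises, and this transcription factor raises genes for amino acid synthesis, amino acid transport and many, but not all, of the cytosolic synthetases. From background knowledge, 13 of the cytosolic genes were listed as ATF4 targets, namely AARS, CARS, EPRS, GARS, IARS, LARS, MARS, NARS, SARS, TARS, VARS, WARS and YARS. The other 7 were DARS, FARSA, FARSB, HARS, KARS, QARS and RARS. The lists were drawn up with earlier results of these data known, so counts split by them are no independent test.

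The promoters of the members were searched on both strands for the C/EBP-ATF response element, the composite site that ATF4 binds, written as TGATGNAA. RefSeq promoter windows (GRCh38.p14), each reaching from 250 bases before to 50 bases after a start of a gene, were held for 30 of the 36 members. Some genes had 2 such entries, and a match in either was counted. Of 10 listed ATF4 targets with an entry, 7 had a match (70.0%), against 0 of 6 other cytosolic genes and 1 of 14 mitochondrial genes (7.14%). Of all 27305 genes in the promoter table, 1217 had a match (4.46%). A match is a run of letters and no evidence of binding. The matches are shown because the listed targets are the genes that the comparisons below turn on. Each line gives 30 bases on the strand that carries the motif, 5′ to 3′, with the motif in capitals.
AARS: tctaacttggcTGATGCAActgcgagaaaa
CARS: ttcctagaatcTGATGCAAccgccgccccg
GARS: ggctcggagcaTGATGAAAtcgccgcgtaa
IARS: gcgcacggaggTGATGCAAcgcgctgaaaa
MARS: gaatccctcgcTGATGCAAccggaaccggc
NARS: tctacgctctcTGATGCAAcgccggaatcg
TARS: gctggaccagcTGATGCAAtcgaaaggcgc
YARS2: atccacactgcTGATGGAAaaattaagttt

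The windows of AARS (chr16:70289675-70289704), CARS (chr11:3057407-3057436) and IARS (chr9:92293692-92293721) are on the plus strand. Those of GARS (chr7:30594834-30594863), MARS (chr12:57488053-57488082), NARS (chr18:57621804-57621833), TARS (chr5:33440956-33440985) and YARS2 (chr12:32756076-32756105) are on the minus strand. Among the 7 cytosolic genes, 6 had the motif on the strand opposite to the gene, and NARS had it on its own strand. CARS, GARS, IARS, MARS, NARS and TARS had it close to the start of the matching entry, between positions -33 and 15 counted from that start. CARS, GARS and TARS each had 2 entries, of which 1 matched, and that start need not be the outermost of the gene. In AARS and YARS2 it lay farther away, at -187 and -197.

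The libraries held between 16058856 and 16648151 counts. The blood cell markers PTPRC, SPI1, GATA1, CD33 and CD34 lay at 0 to 9 counts in every library, and the attached-cell markers VIM, ITGB1 and CTNNB1 at 3424 to 10825 counts. SLC30A10 itself had 11, 5, 8 and 3 counts in the knockout libraries and 8, 6, 8 and 9 in their controls, a log2 ratio of -0.18 (two-sided, exact permutation test, p = 0.686; such a test cannot go below 0.0286). Its RNA did not show the deletion at this depth, and these libraries are named by their labels throughout.

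Compared per kilobase of exon, since counts grow with transcript length, every cytosolic transcript other than CARS, HARS and VARS lay at 43.8 (WARS) or more in the SLC30A10 control and every mitochondrial one other than IARS2 at 36.6 or less. The unit is CPM, counts per 1000000 of the scaled library, per kilobase. SARS was highest at 141 CPM per kilobase, followed by GARS at 137, IARS at 123, KARS at 105 and YARS at 102. The lowest of the cytosolic genes other than VARS were CARS at 15.4 and HARS at 19.4 CPM per kilobase. Among the mitochondrial genes IARS2 led with 58.1 CPM per kilobase, ahead of CARS2 at 36.6 and RARS2 at 36, and PARS2 was low at 6.14. VARS, for the valine enzyme, held only 0 to 8 counts in a library and was not tested. The table lists further numbered copies of VARS, VARS2 and CARS, between which reads of near-identical entries can be split, so the levels of these 3 genes are uncertain. The copy VARS-6 was tested, with group means between 4.51 CPM in the SLC30A10 knockout and 5.53 CPM in its control. It passed in neither knockout, with log2 fold changes of -0.29 ± 0.12 (adjusted p = 0.0543) and 0.09 ± 0.12 (adjusted p = 0.703, edgeR quasi-likelihood).

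**Figure D1:**
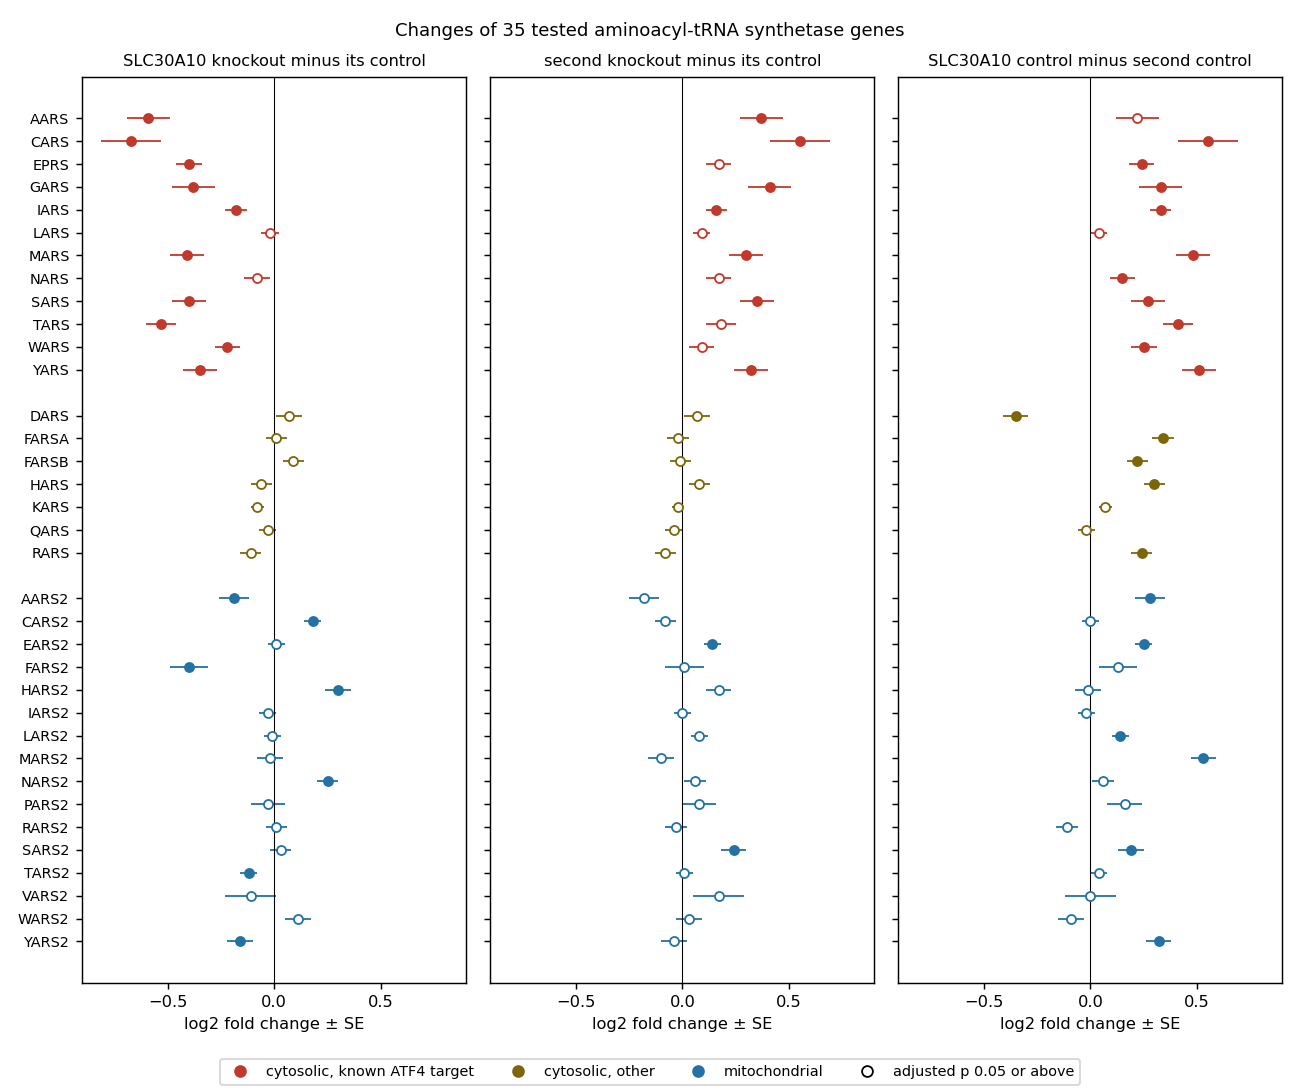
Log2 fold change (x axis, ± SE as bars) of the 35 tested synthetase genes in each knockout against its control and between the control sets, with filled points for an adjusted p under 0.05. Listed ATF4 targets lie left of 0 in the first panel and right of 0 in the others, while mitochondrial genes lie on both sides.

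Which synthetases change with the deletion of SLC30A10 was asked by setting the knockout against its own control. Here 10 of 19 tested cytosolic genes were lower, none was higher and 9 did not pass the test, with a median log2 fold change of -0.18. Every gene that fell was a listed ATF4 target (10 of 12 tested, median -0.39), and none of the other 7 cytosolic genes passed (median -0.03; 1 had an unadjusted p under 0.05, and DESeq2 called 1). Of all 15569 tested genes, 41.4% passed in either direction, 21.2% higher and 20.2% lower, with a median of 0 (edgeR quasi-likelihood test, Benjamini-Hochberg adjusted p under 0.05). For 11 of the 19 genes no knockout library lay within the control range or the reverse, against 38.3% of all genes. The summed level of the cytosolic genes was 4168 ± 52.7 CPM in the knockout and 4902 ± 133 CPM in the control (SD, n = 4).

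CARS, the cysteine enzyme, had 30.6, 31.8, 28.4 and 29.9 CPM in the knockout libraries and 45.7, 50.7, 48.5 and 47.1 CPM in the controls. AARS, the alanine enzyme, had 196, 186, 196 and 200 CPM in the knockout and 286, 299, 285 and 302 CPM in the control. TARS, the threonine enzyme, had 263, 270, 252 and 269 CPM against 375, 371, 412 and 359 CPM. For all 3 genes every knockout library lay below every control library. CARS fell by 0.67 ± 0.14 on the log2 scale (SE, adjusted p = 0.000447), AARS by 0.59 ± 0.10 (adjusted p = 1.75e-05) and TARS by 0.53 ± 0.07 (adjusted p = 2.05e-06, edgeR quasi-likelihood).

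The remaining falls were smaller. MARS, for methionine, dropped by 0.41 ± 0.08 and SARS, for serine, by 0.40 ± 0.08 on the log2 scale. GARS, for glycine, dropped by 0.38 ± 0.10, YARS, for tyrosine, by 0.35 ± 0.08, WARS, for tryptophan, by 0.22 ± 0.06, and IARS, for isoleucine, by 0.18 ± 0.05. Among the listed targets, LARS and NARS, for leucine and asparagine, did not pass, with log2 fold changes of -0.02 ± 0.04 and -0.08 ± 0.06. The 7 other cytosolic genes ranged from -0.11 for RARS to 0.09 for FARSB, and none changed by 1.2-fold.

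Grouped by structure, 6 of 9 tested class I enzymes and 4 of 10 class II enzymes were lower, against 20.2% of all genes, with medians of -0.22 and -0.08. Of the 8 enzymes of the multi-synthetase complex, EPRS, IARS and MARS were lower (median -0.09), and of the 11 tested free enzymes 7 were lower (median -0.35). Each of these groups holds both listed targets and other genes. None of the 3 scaffold genes passed (AIMP1 0.06 ± 0.05, AIMP2 -0.14 ± 0.06, EEF1E1 0.16 ± 0.06), although at an unadjusted p under 0.05 there were 2.

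EPRS lies beside SLC30A10 on chromosome 1 (GRCh38.p14, chr1:219968600-220046505), 9502 bases from it, and IARS2 lies 135034 bases from it (chr1:220094132-220148041). EPRS had 250, 266, 241 and 260 CPM in the knockout and 330, 341, 330 and 337 CPM in the control, with no overlap, and fell by 0.40 ± 0.06 on the log2 scale (adjusted p = 7.43e-06, edgeR quasi-likelihood). IARS2, for mitochondrial isoleucine charging, had 203, 215, 194 and 203 CPM against 213, 208, 196 and 212 CPM and a log2 fold change of -0.03 ± 0.04. Of the 10 nearest tested neighbours of SLC30A10, 5 on each side, RRP15 was higher and LYPLAL1, EPRS and BPNT1 were lower, a count of 4 that is near the 41.4% of all genes that passed. The part of the neighbourhood in the change of EPRS was not tested.

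**Figure D2:**
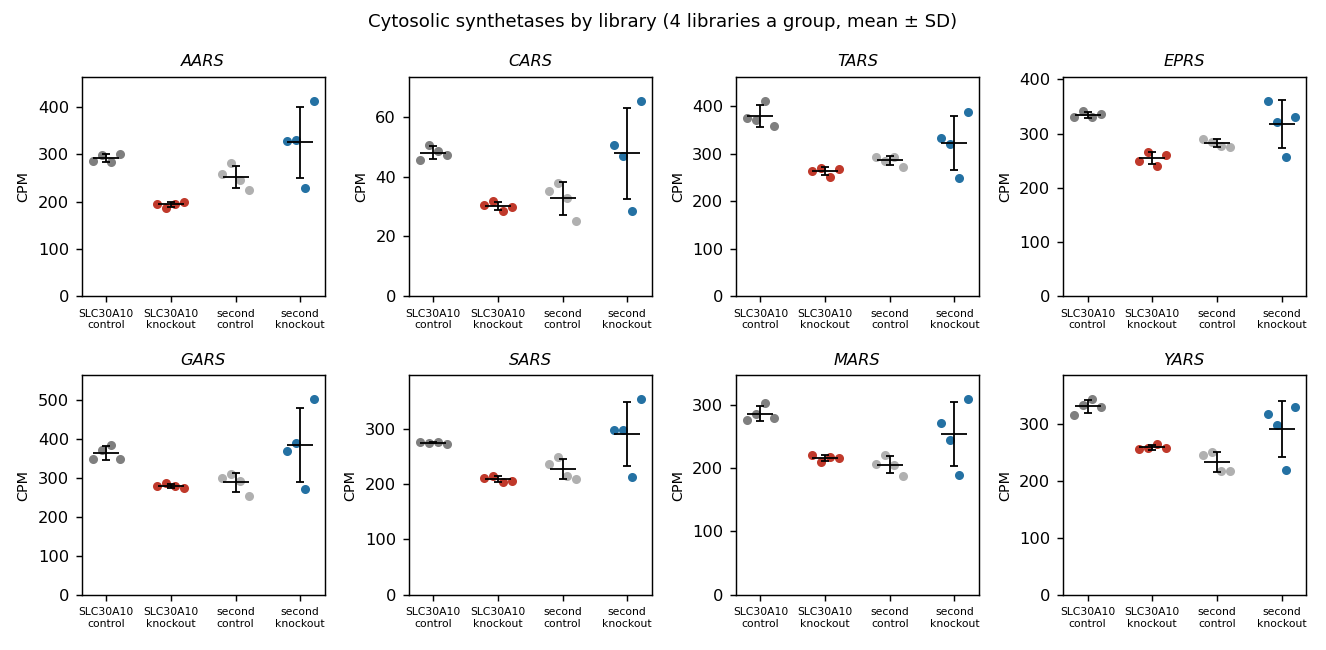
CPM (y axis from 0) of named cytosolic synthetase genes in each library, as points, with the mean and SD of the 4 libraries of each group. Every SLC30A10 knockout library lies below its controls for AARS, CARS, TARS and EPRS, and the second knockout libraries spread most widely.

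The second knockout was compared with its control in the same way, and here the listed targets lay on the other side. Of the 19 tested cytosolic genes 7 were higher, none was lower and 12 did not pass, with a median log2 fold change of 0.16. All 7 were listed ATF4 targets (7 of 12, median 0.24), and none of the other 7 genes passed (median -0.02; 0 had an unadjusted p under 0.05, and DESeq2 called 0). Of all tested genes 13.7% passed in either direction, 6.67% higher and 7.03% lower, with a median of 0. Only 1 of the 19 genes, HARS, had libraries that did not overlap between the groups, against 16.3% of all genes, and HARS did not pass the test. The summed level of the cytosolic genes was 4697 ± 561 CPM in the second knockout and 4155 ± 117 CPM in its control (SD, n = 4).

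CARS had 50.6, 46.8, 28.5 and 65.4 CPM in the second knockout libraries and 35.2, 37.8, 32.8 and 25.1 CPM in the second control. GARS had 370, 390, 271 and 503 CPM against 299, 309, 293 and 253 CPM. AARS had 329, 331, 230 and 414 CPM against 258, 281, 245 and 225 CPM. In each case library 3 of the knockout fell within the range of its controls, library 4 was the highest of all, and the groups overlapped. The log2 fold changes were 0.55 ± 0.14 for CARS (adjusted p = 0.00856), 0.41 ± 0.10 for GARS (adjusted p = 0.00486) and 0.37 ± 0.10 for AARS (adjusted p = 0.00873, edgeR quasi-likelihood). SARS, YARS, MARS and IARS also passed, at 0.35, 0.32, 0.30 and 0.16 on the log2 scale. The call of MARS was lost without second control library 4 or second knockout library 4 (adjusted p = 0.052 and 0.0623), and that of IARS without library 1 or 4 of either group (adjusted p of 0.0591 to 0.114, edgeR quasi-likelihood). The main fit shares 1 estimate of the spread per gene over the 4 groups, though the spread was unequal. The SD of CARS was 15.2 CPM in the second knockout and 5.5 CPM in its control. It was 1.41 CPM in the SLC30A10 knockout and 2.11 CPM in its control. With a fit of only the 8 libraries compared, 4 of the 7 remained past the threshold, and the adjusted p of AARS was 0.0507 (edgeR quasi-likelihood).

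The spread between libraries of the second knockout followed the same order in nearly all listed targets. Library 3 was the lowest of the 4 for 12 of 12 tested targets, and library 4 was the highest for 10 of 12. Among the 7 other cytosolic genes library 3 was lowest for 1 and library 4 highest for 1. The highest library exceeded the lowest by a median of 1.53 times for the listed targets, 1.08 times for the other cytosolic genes and 1.14 times for the mitochondrial genes. In the second control, library 4 was lowest for 11 of 12 targets and library 2 highest for 9, with a median ratio of 1.13. The same ratio was 1.06 in the SLC30A10 knockout and 1.09 in its control. The same libraries stood out for ATF4 and its targets other than synthetases, where library 3 was lowest and library 4 highest for 18 of 20 genes each. Replicate numbers are used here only as names of libraries. Without library 3 of the second knockout, 11 cytosolic genes were higher, with EPRS, LARS, NARS and TARS added. Without libraries 3 and 4 there were 10.

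**Figure D3:**
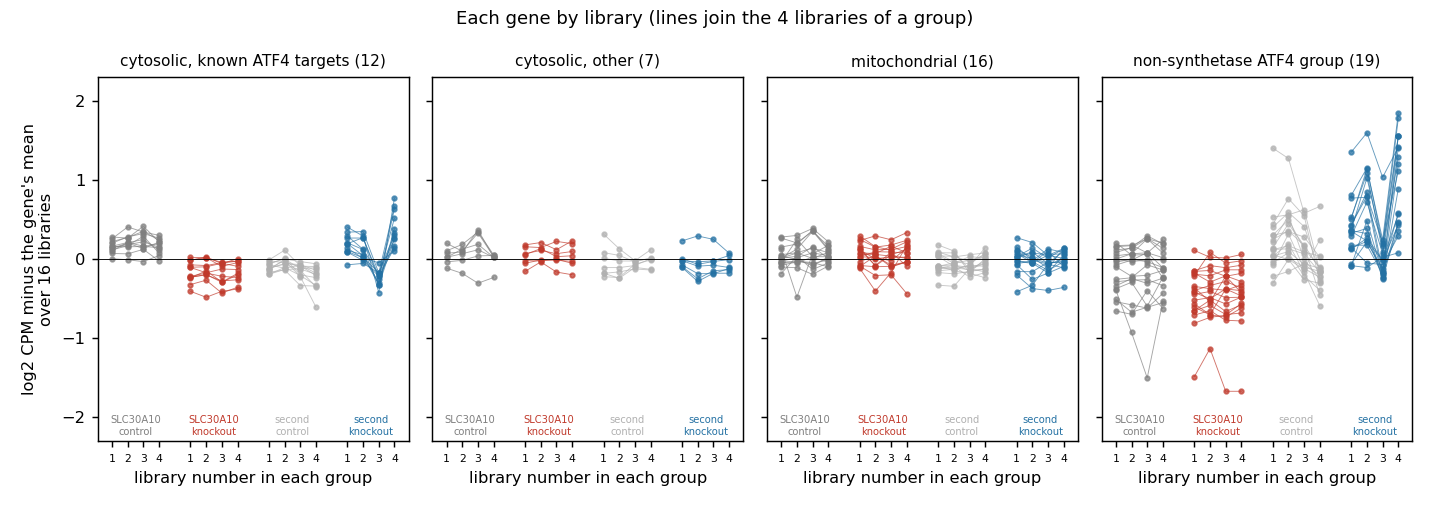
Level of each gene in each library relative to that gene's mean over all libraries (log2, y axis) for listed ATF4-target synthetases, other cytosolic synthetases, mitochondrial synthetases and 19 non-synthetase genes of the ATF4 list (CHAC1 is left out), with points joined for each gene. Libraries 3 and 4 of the second knockout lie farthest from each other in the first and the last panel.

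The difference between the knockout effects was tested as an interaction. It passed for 11 of 19 cytosolic genes, all lower in the SLC30A10 knockout effect and all listed targets, with LARS the only tested target that did not pass. Of all tested genes 31.3% passed, 16.7% higher and 14.6% lower. The median over the 12 targets was -0.69, and over the other 7 cytosolic genes it was 0. NARS, at -0.25 ± 0.09, lost its call without SLC30A10 knockout library 3, second control library 4 or second knockout library 4 (adjusted p of 0.0502 to 0.0582, edgeR quasi-likelihood). The difference was -1.22 ± 0.20 on the log2 scale for CARS, -0.96 ± 0.14 for AARS, -0.79 ± 0.14 for GARS, -0.75 ± 0.12 for SARS and -0.71 ± 0.12 for MARS. The contrast includes the difference between the control sets. Knockout against knockout, with the control sets set aside, 40% of all genes passed, 19.9% higher and 20.1% lower in the SLC30A10 knockout. There 5 of the 12 targets passed, all lower (median -0.26), and 4 of the other 7 cytosolic genes passed as well, with DARS at -0.35, FARSA at 0.37, FARSB at 0.33 and RARS at 0.22. The share of targets called was near the 40% of all genes called in either direction. All 5 were lower, however, where 20.1% of all genes were lower.

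The control sets, which carry one identifier, differed from each other in these genes. In the SLC30A10 control 14 of 19 cytosolic genes were higher than in the second control and DARS was lower, with a median log2 difference of 0.25. Of all tested genes 39.3% passed, 18.5% higher and 20.8% lower, with a median of -0.01, and 36.3% had no overlap between the control sets. The listed targets were higher for 10 of 12 genes, and the other cytosolic genes for 4 of 7. The largest differences were in CARS, at 0.55 ± 0.14, and in YARS, at 0.51 ± 0.08, on the log2 scale. YARS had 316, 334, 344 and 330 CPM in the SLC30A10 control and 245, 250, 218 and 217 CPM in the second control, and its levels in the knockouts were 256, 257, 265 and 258 CPM and 317, 299, 219 and 330 CPM. DARS, for aspartate, ran the other way, with 178, 170, 156 and 164 CPM in the SLC30A10 control and 240, 211, 190 and 209 CPM in the second control, a log2 difference of -0.35 ± 0.06 (adjusted p = 3.19e-05, edgeR quasi-likelihood). The groups did not overlap in either gene.

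Since both comparisons lean on their own control set, each was repeated with the other. Of the 10 cytosolic genes lower in the SLC30A10 knockout, 9 were also higher in the SLC30A10 control than in the second control, and the comparisons share that control set. Against the second control, 44.3% of all genes passed in the SLC30A10 knockout, 21.7% higher and 22.7% lower. It had 2 of the 12 listed targets lower, AARS at -0.37 (adjusted p = 0.00251) and EPRS at -0.15 (adjusted p = 0.0448, edgeR quasi-likelihood), and IARS higher at 0.15. The median over the targets was then -0.01, and fewer of them passed than of all genes. Of the other 7 cytosolic genes 5 passed, with DARS at -0.28, FARSA at 0.34, FARSB at 0.31, HARS at 0.24 and RARS at 0.13. CARS stood at -0.12 and TARS at -0.12, and YARS was at 0.16. Against the SLC30A10 control, the second knockout had 4 of the 12 targets lower and none higher, with a median of -0.04, and 6 of the other 7 cytosolic genes passed, 1 higher and 5 lower. Of all genes 47.8% passed there, 24.4% higher and 23.4% lower.

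Against both control sets pooled, 32.1% of all genes passed in the SLC30A10 knockout, 15.8% higher and 16.4% lower, and 19% in the second knockout, 9.33% higher and 9.67% lower. AARS, EPRS, SARS and TARS were lower in the SLC30A10 knockout, at -0.49, -0.28, -0.27 and -0.34, and the adjusted p of AARS in the second knockout was 0.0839. AARS and EPRS were thus lower in the SLC30A10 knockout against either control set and against both.

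The mitochondrial synthetases changed in both directions. In the SLC30A10 knockout HARS2, NARS2 and CARS2 were higher, FARS2, AARS2, YARS2 and TARS2 were lower and 9 did not pass, so that 7 of 16 passed against 41.4% of all genes, with a median log2 fold change of -0.02. Libraries did not overlap between the groups for 5 of the 16, against 38.3% of all genes. The summed level of the 16 genes was 989.8 ± 8.29 CPM in the knockout and 985.2 ± 10.7 CPM in the control (SD, n = 4).

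HARS2, for histidine, had 41.9, 38.1, 37.0 and 38.2 CPM in the knockout and 31.9, 31.7, 29.9 and 32.2 CPM in the control. NARS2, for asparagine, had 62.9, 58.8, 59.9 and 62.4 CPM against 50, 51.8, 50.9 and 52.6 CPM. CARS2, for cysteine, had 78.2, 75.8, 76.3 and 81.4 CPM against 67.8, 67.7, 71.2 and 68.1 CPM. All knockout libraries lay above all controls for these 3 genes. HARS2 rose by 0.30 ± 0.06 on the log2 scale (adjusted p = 0.000135), NARS2 by 0.25 ± 0.05 (adjusted p = 0.00015) and CARS2 by 0.18 ± 0.04 (adjusted p = 0.00173, edgeR quasi-likelihood). Against the second control the rises were 0.29, 0.31 and 0.18, each past the threshold.

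FARS2, for phenylalanine, had 16.3, 15, 15.1 and 12.8 CPM in the knockout and 17.5, 18.9, 22.1 and 19.4 CPM in the control. It fell by 0.40 ± 0.09 on the log2 scale with no overlap (adjusted p = 0.000753), and by 0.26 against the second control (adjusted p = 0.0197, edgeR quasi-likelihood). AARS2, for alanine, had 38.9, 35.9, 36.6 and 36.4 CPM against 43.1, 41.3, 45.8 and 38.8 CPM, and YARS2, for tyrosine, had 36.7, 31.7, 35.7 and 35.4 CPM against 37.3, 38.3, 43.2 and 36.7 CPM. The groups overlapped for both, by the closest libraries only. AARS2 fell by 0.19 ± 0.07 (adjusted p = 0.033), YARS2 by 0.16 ± 0.06 (adjusted p = 0.0408) and TARS2, for threonine, by 0.12 ± 0.04 on the log2 scale (adjusted p = 0.0246, edgeR quasi-likelihood). Leaving out any of 5 libraries ended each of these 3 calls. Those were SLC30A10 knockout libraries 2, 3 and 4 and control libraries 1 and 3 for AARS2 (adjusted p up to 0.111), knockout libraries 2, 3 and 4 and control libraries 2 and 3 for YARS2 (up to 0.18), and knockout libraries 1, 2 and 3 and control libraries 2 and 4 for TARS2 (up to 0.0573, edgeR quasi-likelihood). Against the second control AARS2 and YARS2 had log2 fold changes of 0.08 and 0.17.

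**Figure D4:**
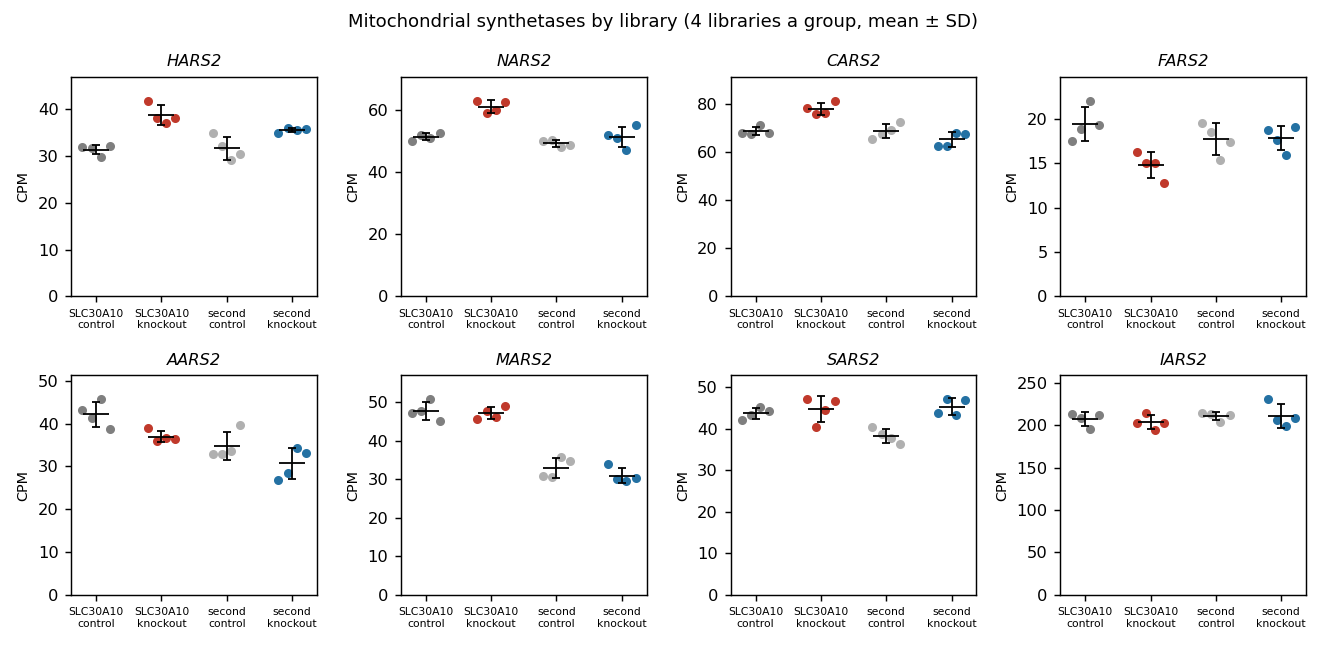
CPM (y axis from 0) of named mitochondrial synthetase genes in each library, as points, with the mean and SD of the 4 libraries of each group. SLC30A10 knockout libraries lie above their controls for HARS2, NARS2 and CARS2 and below them for FARS2, and MARS2 separates the control sets.

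In the second knockout SARS2 and EARS2 were higher and none of the 16 was lower, with a median of 0.02. Of all genes 13.7% passed, 6.67% higher and 7.03% lower. SARS2, for serine, had 43.8, 47.2, 43.3 and 47.0 CPM against 40.4, 38.7, 37.9 and 36.4 CPM, with no overlap, and rose by 0.24 ± 0.06 on the log2 scale (adjusted p = 0.00325, edgeR quasi-likelihood). The control sets themselves differed in SARS2, by 0.19 ± 0.06 (adjusted p = 0.00812), and its change was 0.14 against pooled controls (adjusted p = 0.108) and 0.05 against the SLC30A10 control (adjusted p = 0.472, edgeR quasi-likelihood). EARS2, for glutamate, had 121, 110, 102 and 110 CPM against 100, 98.9, 101 and 103 CPM, which overlapped, and rose by 0.14 ± 0.04 (adjusted p = 0.0319). Leaving out knockout library 1 or 2, or control library 1, 2 or 3, took EARS2 to adjusted p between 0.0555 and 0.123. Against the SLC30A10 control EARS2 stood at -0.11. The interaction passed for 4 of the 16, below the 31.3% of all genes, with CARS2 (0.26) and NARS2 (0.19) higher in the SLC30A10 effect and FARS2 (-0.40) and SARS2 (-0.21) lower in it. Between the control sets 6 of the 16 were higher in the SLC30A10 control and none was lower (median 0.10). Of all genes 39.3% passed there, 18.5% higher and 20.8% lower. MARS2, for methionine, had 47.1, 47.8, 50.8 and 45.2 CPM there and 30.9, 30.6, 35.7 and 34.7 CPM in the second control, a log2 difference of 0.53 ± 0.06 (adjusted p = 1.95e-07, edgeR quasi-likelihood). YARS2 followed at 0.32 ± 0.06.

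HARS and HARS2 lie head to head on chromosome 5, on opposite strands with starts 85 bases apart, and encode the cytosolic and the mitochondrial histidine enzyme. HARS had 78.1, 80.2, 78.0 and 79.5 CPM in the SLC30A10 knockout and 78.3, 79.2, 95.9 and 75.8 CPM in its control, with library 3 of the control above the rest, and a log2 fold change of -0.06 ± 0.05. HARS2 was higher in the same libraries, as given above. In the second knockout HARS had 73.4, 69.9, 70.5 and 69.1 CPM against 65.6, 66.5, 68.2 and 67.6 CPM, and HARS2 had 34.9, 36, 35.6 and 35.8 CPM against 35, 32.1, 29.2 and 30.4 CPM. Their log2 fold changes were 0.08 ± 0.05 and 0.17 ± 0.06, and neither passed. Between the control sets HARS differed by 0.30 ± 0.05 and HARS2 by -0.01 ± 0.06 on the log2 scale. Whether strand was used in counting is not given in the sources used here, so reads from any overlap of the pair cannot be told apart.

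Other genes of the pathway were described from lists drawn from background knowledge, also with earlier results of these data known. Among the partners of mitochondrial charging and elongation, 2 of 12 tested genes were higher in the SLC30A10 knockout, no more than the 21.2% of all genes that were higher. GATC, a subunit of the glutaminyl-tRNA amidotransferase, rose by 0.14 ± 0.04 on the log2 scale and TRNT1, which adds the CCA end to tRNAs, by 0.13 ± 0.05. None of the 12 passed in the second knockout, where 3 had an unadjusted p under 0.05. In the list of cytosolic elongation and tRNA export, 4 of 9 genes were higher in the SLC30A10 knockout, against 21.2% of all genes, among them the elongation factor subunits EEF1G at 0.24 ± 0.03 and EEF1A1 at 0.16 ± 0.04. In the second knockout EEF1B2 and EEF1A1 were lower, at -0.24 ± 0.04 and -0.15 ± 0.04, and XPOT, the tRNA exporter, was higher at 0.21 ± 0.06, where 7.03% of all genes were lower and 6.67% higher. Both EEF1A1 and EEF1G were lower in the SLC30A10 control than in the second control, at -0.22 ± 0.04 and -0.17 ± 0.03. EEF1B2 and XPOT did not pass between the control sets. Mean EEF1A1 was 4460 CPM in the SLC30A10 control, 4970 in its knockout, 5210 in the second control and 4700 in the second knockout.

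ATF4 and 19 of its targets other than synthetases made up a further list. In the SLC30A10 knockout 7 of the 20 were lower and none higher, against 20.2% and 21.2% of all genes, with a median log2 fold change of -0.22. ATF4 itself had 357, 366, 347 and 348 CPM in that knockout and 542, 547, 582 and 559 CPM in its control, and fell by 0.65 ± 0.09 (adjusted p = 1.01e-06, edgeR quasi-likelihood). ASNS, asparagine synthetase, had 104, 97.1, 95.2 and 103 CPM against 178, 179, 167 and 188 CPM, a fall of 0.83 ± 0.17 with no overlap. In the second knockout 10 of the 20 were higher, against 6.67% of all genes, and CHAC1 was lower, with a median of 0.39. The groups did not overlap for 1 of the 20, against 16.3% of all genes. ASNS had 270, 272, 135 and 364 CPM against 162, 181, 141 and 105 CPM, with library 3 inside the control range, and rose by 0.82 ± 0.17. CHAC1, a glutathione-degrading enzyme and ATF4 target, went against the list. It had 1.18, 0.675, 0.727 and 0.969 CPM in the second knockout against 37.5, 43.8, 36.3 and 14.8 CPM, a log2 fold change of -5.21 ± 0.29. The second control was itself high for CHAC1, with a mean of 33.1 CPM, where the other control set averaged 4.95 CPM. SLC30A10 control minus second control was -2.74 ± 0.21 on the log2 scale (adjusted p = 1.94e-09, edgeR quasi-likelihood). The second knockout mean of CHAC1, 0.889 CPM, lay below both control means. Between the control sets the list was 2 genes higher and 9 lower, against 18.5% and 20.8% of all genes, whereas the listed synthetases were 10 higher and none lower.

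Amino acid transporters import the substrates of the synthetases. In the SLC30A10 knockout 5 of 11 were lower, against 20.2% of all genes, and SLC43A1 was higher (median -0.31). The second knockout had 8 of them higher, against 6.67% of all genes (median 0.36). The groups overlapped there for all 11, whereas 16.3% of all genes had no overlap. Library 4 of the second knockout was the highest of its group for 11 of 11, and library 3 the lowest for 9. SLC7A5, the light chain of the large neutral amino acid transporter, had 205, 193, 224 and 217 CPM in the SLC30A10 knockout and 430, 471, 513 and 441 CPM in its control, and fell by 1.14 ± 0.12 on the log2 scale (adjusted p = 7.67e-09, edgeR quasi-likelihood). In the second knockout it had 436, 474, 317 and 613 CPM against 322, 385, 337 and 283 CPM, a rise of 0.47 ± 0.11. Its partner SLC3A2 fell by 0.67 ± 0.10 and rose by 0.39 ± 0.10. Both genes were higher in the SLC30A10 control than in the second control, SLC7A5 by 0.48 ± 0.11 and SLC3A2 by 0.26 ± 0.10. Mean SLC7A5 was 464 CPM in the SLC30A10 control, 332 in the second control and 460 in the second knockout. Between the control sets 4 of the 11 transporters were higher and 2 lower, against 18.5% and 20.8% of all genes. Of 9 genes for eIF2 alpha kinases and phosphatase subunits, EIF2AK4, which encodes the sensor of uncharged tRNA, rose by 0.37 ± 0.04 in the SLC30A10 knockout, and EIF2AK3, which encodes the kinase PERK, by 0.33 ± 0.08, which makes 2 of 9 higher against 21.2% of all genes. In the second knockout IMPACT, an inhibitor of GCN2, was higher at 0.19 ± 0.05.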

How the data were processed

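The authors deposited a table of whole-number counts per gene symbol and a table of normalized signal, each column of which equals the deposited counts of that library times a constant, within 8.69e-06. Per the submitters' processing notes, HISAT2, featureCounts, DESeq2 and hg38/GRCh38 were used; versions, annotation and use of strand are not given in the sources used here. The gene of the second knockout and 1 gene of the list of mitochondrial charging partners are not reported here.

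Groups came from the labels' genotypes and titles. The synthetases were matched by symbol, and the members and gene lists were chosen with earlier results of these data known. Counts of all 16 libraries were fitted together with edgeR 4.0.16 (R 4.3.3), with a mean for each of 4 groups. Genes were kept at a minimum count of 10 and a total of 15, which left 15569, and TMM scaling of the libraries followed. Quasi-likelihood F tests were adjusted by Benjamini-Hochberg over all tested genes, with a threshold of 0.05. The SE printed with a log2 fold change is its absolute value divided by the square root of F. Totals ran from 16058856 to 16648151 counts. Reads carry no stated molecular identifiers. Replicate pairs differed by a chi-square of 1.60 to 6.43 per degree of freedom, so none was treated as a repeat.

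Named with a value in every library were the 3 largest rises and falls past the threshold in each knockout among the cytosolic and among the mitochondrial genes, the 2 largest between the control sets, EPRS, IARS2, HARS and HARS2. From other lists, at most 3 genes a knockout could be named, by lowest adjusted p. LARS, NARS, RARS, FARSB, the neighbours of SLC30A10 and genes named in counts are outside that rule. Levels per kilobase used union exon lengths of GENCODE 29. Promoters came from RefSeq, GRCh38.p14. The procedure was tested on simulated data. Alternatives were other scalings (median-of-ratios, totals, deposited factors), DESeq2 1.42.0, other filters, numbered copies summed, other control libraries, a replicate block, only 8 libraries, and each library left out.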

Additional observations from a re-analysis of the deposited data

Results flagged for a closer look

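Of 148 groups of 4 values examined, 6 held a library far from the other 3, against 7.4 expected if 1 in 20 groups is flagged by chance. The value given is the distance from that library to its closest neighbour divided by the whole range of the 4, which was above Dixon's 95% limit in each. In the SLC30A10 control, library 3 was the outlying highest for HARS (0.831), CARS2 (0.886) and LARS2 (0.833). EARS2 had library 3 of the SLC30A10 knockout highest (0.875), QARS library 4 of the second knockout (0.846) and AARS2 library 4 of the second control (0.894).

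The effects of the knockouts differed by the interaction test for 15 genes (edgeR quasi-likelihood, SLC30A10 effect minus second effect, log2). They were CARS at -1.22, AARS at -0.96, GARS at -0.79, SARS at -0.75, MARS at -0.71, TARS at -0.70, YARS at -0.68, EPRS at -0.57, FARS2 at -0.40, IARS at -0.35, WARS at -0.31, NARS at -0.25, SARS2 at -0.21, NARS2 at 0.19 and CARS2 at 0.26. The call was lost without any of 3 libraries for NARS, of 8 for NARS2 and of 9 for SARS2, with adjusted p of 0.0502 to 0.1.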

How the results depend on the processing

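Scaling, the DESeq2 test and summed copies kept the counts of all, of cytosolic and of mitochondrial members called within 1.5 times. In the SLC30A10 knockout DESeq2 called 1 of the cytosolic genes not listed as targets, where the main fit called none. With no filter on low counts, 2 mitochondrial genes differed between the knockout effects, in place of 4. With only the 8 libraries compared, the second knockout had 5 called members, 4 cytosolic and 1 mitochondrial, in place of 9, 7 and 2. With both control sets pooled, 10 members were called in the SLC30A10 knockout, 5 of them cytosolic, and 4 in the second, 1 of them cytosolic. Against the other control set, 17 were called in the SLC30A10 knockout, 13 higher and 4 lower, of which 6 kept the direction of the first fit, and 14 in the second knockout, 4 of them mitochondrial.

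Directions reversed for called genes as follows (log2). Against the other control set the SLC30A10 knockout gave DARS -0.28, HARS 0.24, IARS 0.15, MARS 0.07, RARS 0.13, WARS 0.03, YARS 0.16, AARS2 0.08, LARS2 0.13, MARS2 0.51 and YARS2 0.17, and the second knockout gave CARS -0.01, HARS -0.22, IARS -0.17, MARS -0.17, TARS -0.23, WARS -0.17, YARS -0.19 and EARS2 -0.11. With pooled controls IARS was -0.01 in the second knockout. Knockout against knockout, an alternative chosen after seeing the data, gave RARS 0.22 and AARS2 0.27. The cause was not tested.

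Leaving out each library in turn reversed no called direction. The SLC30A10 knockout had 14 to 18 called members, 10 to 12 cytosolic and 4 to 6 mitochondrial, with 4 without its library 2 or 3. The second knockout had 7 to 14, 5 to 11 cytosolic and 1 to 3 mitochondrial, highest without its library 3. The difference had 13 to 16, 10 to 12 and 2 to 4, and the control sets 20 to 22, 14 to 16 and 6. The log2 ratio of SLC30A10 lay between -0.52 and 0.07, and against pooled controls it was 0.20. With the replicate block, 17, 10, 14 and 21 members were called in the SLC30A10 knockout, the second knockout, the difference and the control sets, and the exact p of SLC30A10 was 0.75. Deviations of same-numbered libraries were weakly correlated (mean -0.0386, 0.0688 and 0.0359 for the 2 knockout comparisons and the control sets). Between the control sets the same number was the best match for libraries 1, 2 and 3 of the SLC30A10 control. In the knockout comparisons this held only for library 1 of the second knockout. The main fit did not pair libraries, and weak means cannot exclude a pairing. Omission of second knockout libraries 3 and 4, also chosen after seeing the data, left 13 called members. The entry named VARS, at 0 to 8 counts, was not tested, and its reads may be split between numbered copies.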
